A study of Mus musculus with 6 samples.

Results

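The mitosis genes are 40 genes whose products drive or carry out cell division: cyclins and their kinase, spindle and kinetochore proteins, checkpoint kinases, the chromosomal passenger complex, and the proteins of mitotic exit and cytokinesis. They were named as a list, and each was read from its probe set of highest mean log2 level over the 6 arrays among probe sets annotated to that gene alone. Of the 40, 38 were measured, out of 12393 genes on the arrays. Ccnb1 and Cdca8 were matched to no probe set of 1 gene and were not analysed here. The arrays held RNA of lenses from newborn (P0) mice, 3 from Le-AP-2alpha conditional mutants, in which Tcfap2a (now Tfap2a) is targeted, and 3 from wild-type littermates. The labels name neither the Cre line nor the deleted part of the gene, and do not give the number of animals behind each sample; the design text calls the triplicates biological. The series title asks what AP-2alpha does within the lens itself, including how the lens epithelium keeps its character.

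Mitosis begins when cyclin-dependent kinase 1 is activated by its cyclins, and it ends when the anaphase-promoting complex destroys those cyclins. In between, chromosomes condense, attach to the spindle through their kinetochores and are held back by a checkpoint until every pair is attached. Many of the genes are transcribed mainly in the G2 phase and mitosis, under the MuvB complex with B-Myb and FOXM1 and the factor NF-Y, so their RNA levels are widely read as markers of cycling cells. In the newborn lens the dividing cells lie in the epithelium on its front face, while fibre cells have left the cycle. In RNA of whole lenses, fewer dividing cells and less RNA per dividing cell cannot be told apart, nor can more cells and more RNA per cell.

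Promoter sequences of 4 of the genes named further on are shown because they hold both motifs known from this kind of gene ahead of their start. These motifs are CCAAT, bound by NF-Y, and TTTGAA, the cell cycle homology region bound by MuvB. Each line gives the 150 bases before the start annotated in RefSeq (GRCm38.p6), 5′ to 3′ on the strand of the gene, with matches on either strand in capitals (a match on the other strand reads ATTGG or TTCAAA). They lie at chr10:69352913-69353062 (minus strand) for Cdk1, the mitotic kinase, and at chr11:99024190-99024339 (minus strand) for Top2a, the topoisomerase that untangles sister chromatids. For the activators of cyclin destruction, they lie at chr4:118437344-118437493 (minus strand) for Cdc20 and chr2:164769779-164769928 (plus strand) for Ube2c.
Cdk1: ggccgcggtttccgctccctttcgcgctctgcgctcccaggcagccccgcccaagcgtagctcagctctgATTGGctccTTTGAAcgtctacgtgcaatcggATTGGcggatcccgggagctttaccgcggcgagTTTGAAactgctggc
Top2a: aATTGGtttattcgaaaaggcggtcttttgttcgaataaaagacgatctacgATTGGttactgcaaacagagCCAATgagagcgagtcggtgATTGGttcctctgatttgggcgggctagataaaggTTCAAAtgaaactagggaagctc
Cdc20: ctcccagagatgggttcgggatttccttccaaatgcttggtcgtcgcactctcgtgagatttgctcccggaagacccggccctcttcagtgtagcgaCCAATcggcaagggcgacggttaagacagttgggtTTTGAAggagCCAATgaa
Ube2c: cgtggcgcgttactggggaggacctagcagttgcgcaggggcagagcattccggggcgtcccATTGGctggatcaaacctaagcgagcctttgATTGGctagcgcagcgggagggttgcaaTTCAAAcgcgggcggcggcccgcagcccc

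A promoter of RefSeq was matched to 32 of the 38 genes, with 34 windows of 250 bases before to 50 bases after a start; Ect2 and Prc1 had 2 overlapping windows each. CCAAT was present on either strand in 28 of the 34 windows (82.4%), against 37.1% of 12566 windows of genes on the arrays and 37.4% of all 32851 windows. TTTGAA was present in 24 windows (70.6%), against 12.9% and 17.9%. All 24 windows with TTTGAA also held CCAAT, a pairing found in 5.0% of the windows of genes on the arrays. Of 32 matches to TTTGAA, 22 lay within 50 bases of the start on either side, and 24 read along the strand of the gene. Of 67 matches to CCAAT, 63 lay upstream, and 1 pair of matches overlapped. For both motifs, a site shared by the 2 windows of Ect2 or of Prc1 is counted in each window, so distinct sites are fewer. In Cdk1 above, a CCAAT match precedes each TTTGAA. Neither motif was found in the windows of Birc5, Mad2l1, Melk, Nusap1, Tacc3 or Trip13. The list of DNA replication genes held CCAAT in 53.1% and TTTGAA in 9.38% of its 32 windows. These matches describe the letters in the windows and are not measured binding sites.

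**Figure D1:**
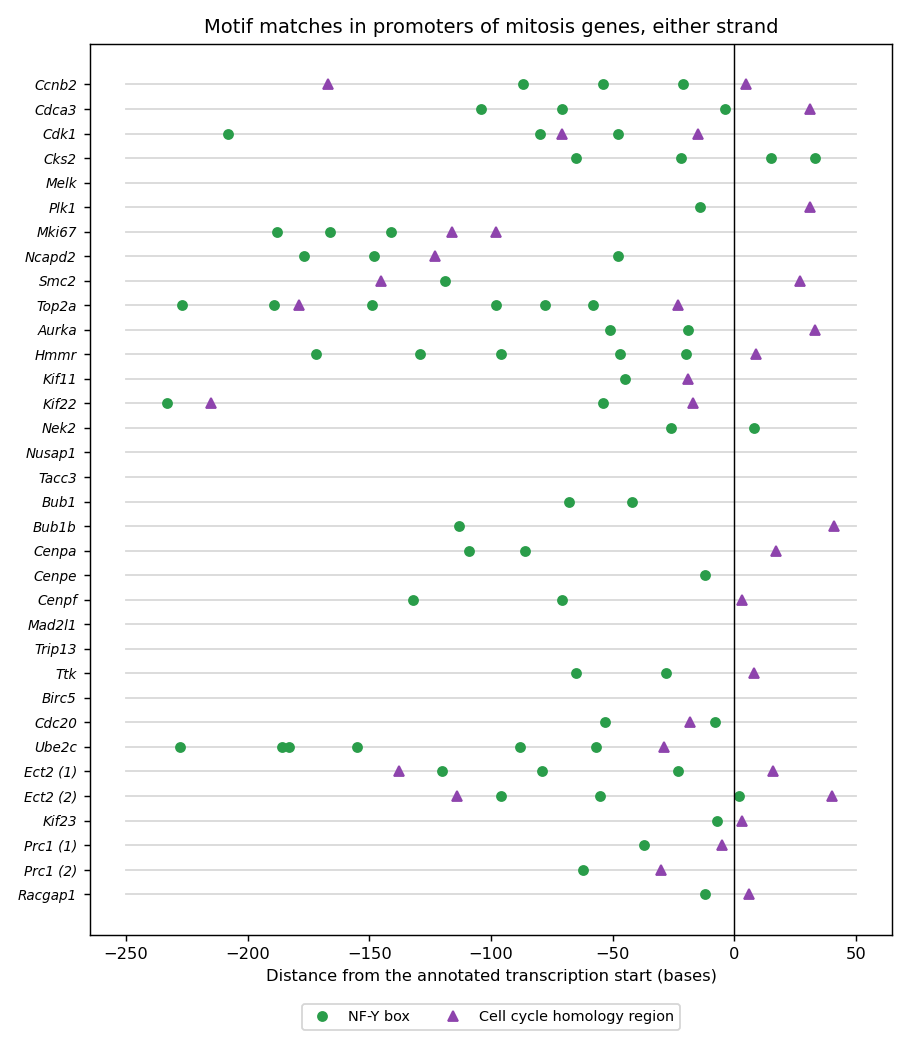
Positions of motif matches in the 34 promoter windows of mitosis genes, in bases from the annotated start (0, vertical line). Circles mark the NF-Y box and triangles the cell cycle homology region, on either strand. Of the 32 triangles, 22 sit within 50 bases of the start, and 6 windows hold no mark.

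Most mitosis genes had higher values in the mutant lenses. The difference, mutant minus wild type in log2 units, was above 0 for 34 of the 38 genes (89.5%), where it was above 0 for 47.8% of all genes. The median difference was 0.58, against -0.01 over all genes, and single genes ranged from -0.45 for Aurka to 1.10 for Smc2. No gene passed the test: limma with Benjamini-Hochberg adjustment over all 22626 probe sets called 0 of 38, against 0% of all genes, and every one of the 38 had an adjusted p of 0.999. At an unadjusted p under 0.05 there were 8 higher (21.1%) and 0 lower, against 2.13% of all genes higher and 1.72% lower. The 3 mutants lay above the 3 wild types for 6 genes (15.8%), against 4.22% of all genes, and below them for 0, against 4.58%. When limma weighted the arrays by how well they followed the fit, the median was 0.15, with 25 of 38 above 0 and 0 called. Of the 38 differences with equal weights, 15 exceeded the SD of both groups. The genes vary together from array to array, so these counts are not counts of independent genes.

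Read array by array, the separation of the groups depended on the measure. The median level over the 38 genes was 7.40, 7.49 and 7.30 in mutant replicates 1, 2 and 3 and 6.25, 6.78 and 7.12 in wild-type replicates 1, 2 and 3, without overlap. Mutant replicate 1 gave the highest value of 17 genes and mutant replicate 2 of 11. Wild-type replicate 1 gave the lowest value of 21 genes and wild-type replicate 2 of 14. Mutant replicate 3 and wild-type replicate 3 lay between, with median deviations from the gene means of 0.01 and 0.17 respectively, so by deviations the groups overlapped and this wild type lay above this mutant, the reverse of their order by median level. The wild types also spread more widely than the mutants: the median SD of a gene was 0.54 in wild types and 0.36 in mutants, and the wild-type SD was the larger for 28 of 38 genes.

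**Figure D2:**
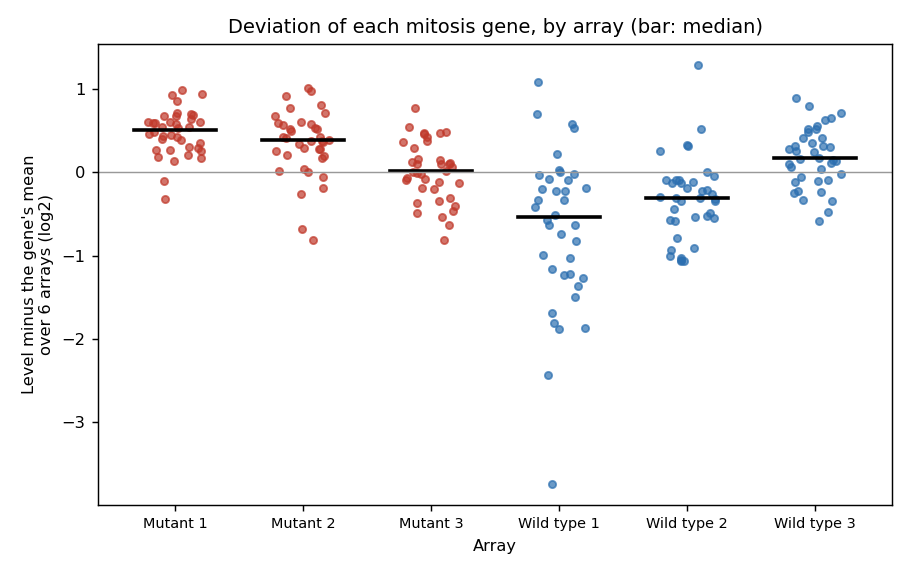
Each point is 1 of the 38 mitosis genes on 1 array, as its log2 level minus its mean over the 6 arrays; bars are medians. Mutant replicates 1 and 2 sit highest (0.51 and 0.38), wild-type replicates 1 and 2 lowest (-0.54 and -0.31), and the 2 arrays of replicate 3 near 0.

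Wild-type replicate 1 stood apart on the arrays as a whole. Its Pearson correlations with the other arrays over all probe sets were 0.926 to 0.945, against 0.974 to 0.985 among the other 5. Without it the median difference of the mitosis genes was 0.32, with 33 of 38 above 0 (86.8%, against 50.6% of all genes). An unadjusted p under 0.05 was then reached by 9 genes (23.7%, against 3.13% of all genes, higher), of which 6 were among the 8 above; limma called 0, with a lowest adjusted p of 0.776. This array did not read low for every gene. It gave the lowest value by more than 1 log2 unit for 10 genes (Cdk1, Cdca3, Melk, Top2a, Smc2, Mad2l1, Cdc20, Ube2c, Prc1 and Ect2) but the highest of all 6 arrays for 4 (Mki67, Incenp, Aurka and Cenpe).

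Tfap2a, the targeted gene, read higher in the libraries labelled mutant, not lower. Its brightest probe set read 9.57, 9.64 and 9.83 in mutants and 8.36, 9.26 and 9.56 in wild types, without overlap (0.62 ± 0.33, and 0.27 without wild-type replicate 1). Its other probe sets differed by 0.36 ± 0.36 and 1.57 ± 0.49 (limma unadjusted p = 0.0161, adjusted p = 0.999), both with overlap. With the deleted part unnamed, these values do not check the labels, and every direction given here is that of the libraries as labelled. The median log2 level of an array was 5.19 to 5.32. The lens itself was evident in both groups, with all 10 measured fibre cell markers and 11 of 14 epithelial markers brighter than the median probe set. Epithelial markers were higher in mutants for 8 of 14 genes, or 4 of 14 without wild-type replicate 1, with summed intensities of 23130 to 24072 in mutants and 19827 to 25277 in wild types. The 3 epithelial genes at an unadjusted p under 0.05 were all lower, without overlap: the cadherin Cdh1 (-1.29 ± 0.30), the amino acid transporter Slc38a3 (-1.04 ± 0.40) and the transcription factor Foxe3 (-0.71 ± 0.29), each with a limma adjusted p of 0.999. Without wild-type replicate 1 these differences were -1.56, -0.68 and -0.49, and Foxe3 was dimmer than the median probe set. Over all genes, 1.72% were lower at that p and 4.58% were lower without overlap. Fibre markers were lower for 9 of 10, at 70383 to 87963 against 79866 to 100260. At an unadjusted p under 0.05, 2 of them were lower, both without overlap (Dnase2b, -1.44 ± 0.41, and Bfsp1, -0.65 ± 0.22). Markers of some other cells were higher in mutants, as the mitosis genes were. Over all genes, 47.8% were higher, and 2.13% were higher at an unadjusted p under 0.05. All 13 measured retinal and neural genes were higher in mutants, with summed intensities of 4398 to 6049 in mutants and 2083 to 4137 in wild types. Without wild-type replicate 1, 12 of 13 were higher, and their median difference was 1.13 with it and 0.64 without it. At an unadjusted p under 0.05 there were 4 of them higher (Elavl3, Tubb3, Stmn2 and Isl1) and 0 lower, and 5 were higher without overlap. Macrophage markers were higher for 15 of 16 genes (1180 to 4593 against 1074 to 1435), and mesenchyme markers for 11 of 13 (626 to 1095 against 406 to 724). The macrophage sum of 4593 was that of mutant replicate 2, with 1180 and 1596 in mutant replicates 1 and 3. The mesenchyme sum of 406 was that of wild-type replicate 1, with 724 and 660 in the other wild types. Without wild-type replicate 1, 15 of 16 macrophage and 9 of 13 mesenchyme markers were higher. At that p there were 2 macrophage markers (Ptprc and Cd68) and 1 mesenchyme marker (Col6a1) higher, and 0 of either lower. Pigment cell markers were higher for 6 of 9, with a median difference of 0.56 (0.19 without wild-type replicate 1) and 3 at an unadjusted p under 0.05 (Oca2, Pmel and Dct, all higher without overlap). Another 2 were lower without overlap: Mitf, the brightest of them (-0.29 ± 0.17), and Rpe65, dimmer than the median probe set (-0.43 ± 0.19). Over all genes, 4.22% were higher and 4.58% lower without overlap. The sum of the pigment markers was 2967 to 3451 in mutants and 3198 to 3767 in wild types, with overlap. It rests mostly on Mitf, at a mean log2 level of 11.33 against 8.03 for the next brightest, Tyrp1. The sum is therefore no measure of the other pigment genes. Endothelial markers were higher for 4 of 10 and summed to 1445 to 2033 against 1914 to 2171, and all 7 measured erythroid markers were dimmer than the median probe set. The part of any of these cells in the mitosis values was not tested. The 3′ minus 5′ log2 difference of the Gapdh control was 1.07, 1.39 and 0.76 in mutants and 1.07, 0.73 and 1.20 in wild types, lowest for mutant replicate 3 and wild-type replicate 2. With this measure, averaged with that of beta-actin, as a covariate, the median difference was 0.54 and 34 of 38 genes were above 0.

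Entry into mitosis is carried by 8 of the measured genes, and all 8 had higher mean values in mutants, with a median log2 difference of 0.47 that was 0.28 without wild-type replicate 1. Values below are log2 levels of replicates 1, 2 and 3 in that order, and differences carry the standard error of the fit. Ccna2, the cyclin of S phase and early mitosis, read 10.03, 9.96 and 9.46 in mutants and 8.14, 9.05 and 9.50 in wild types. The difference was 0.92 ± 0.38 (limma unadjusted p = 0.0474, adjusted p = 0.999), with wild-type replicate 3 just above the lowest mutant, and it was 0.54 without wild-type replicate 1. Cdk1 read 8.32, 8.71 and 7.43 against 6.05, 7.65 and 8.26, a difference of 0.84 ± 0.62 that was 0.20 without wild-type replicate 1. Cdca3, an adaptor that helps degrade the Cdk1 inhibitor Wee1, read 8.19, 8.22 and 8.69 against 6.56, 7.71 and 8.17. Its groups did not overlap, although mutant replicate 1 lay only just above wild-type replicate 3; the difference was 0.89 ± 0.43, and 0.43 without wild-type replicate 1. Foxm1, the transcription factor of G2 genes, read 5.17, 5.29 and 5.76 against 5.19, 4.71 and 5.57, close to the level of the median probe set (5.26), and differed by 0.25 ± 0.29 with overlapping groups, or 0.03 without wild-type replicate 2. The polo-like kinase Plk1, the kinase Melk, the cyclin Ccnb2 and the Cdk1 subunit Cks2 differed by 0.32 to 0.59, also with overlap; without wild-type replicate 1 they differed by 0.12 (Melk) to 0.52 (Plk1).

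**Figure D3:**
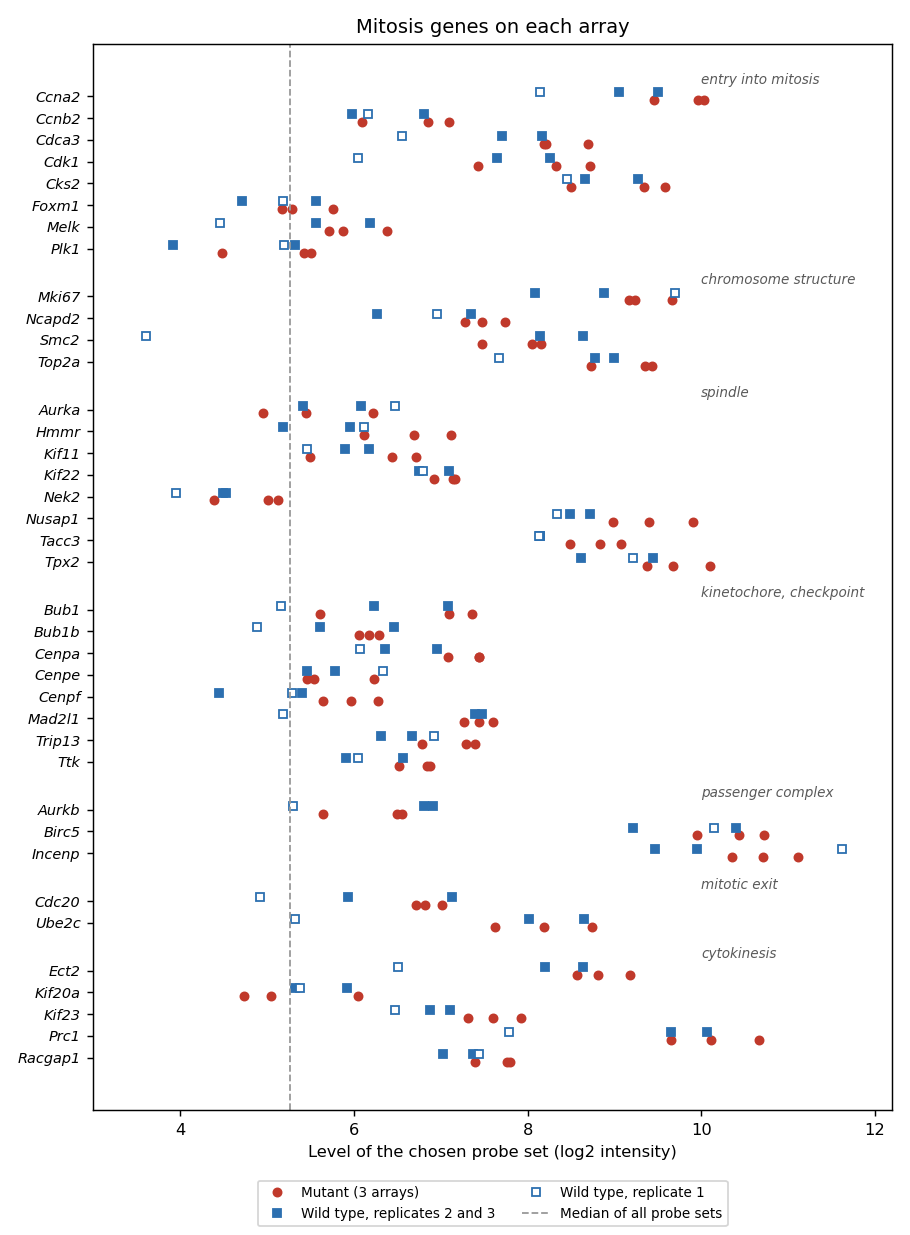
Log2 level of the chosen probe set of each of the 38 genes on each array, grouped by role. Circles are mutants, filled squares wild-type replicates 2 and 3, open squares wild-type replicate 1, and the dashed line is the median of all probe sets (5.26). Circles lie right of all squares for 6 genes, and 36 of 38 genes have a mean above the dashed line.

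Genes of chromosome structure were higher on average for 4 of 4, with a median difference of 0.66, and the groups overlapped for each. Without wild-type replicate 1, 3 of 4 were higher and the median was 0.49. Mki67, the coat protein of mitotic chromosomes and the usual marker of proliferation, read 9.66, 9.17 and 9.24 in mutants and 9.70, 8.09 and 8.88 in wild types. Wild-type replicate 1 was the highest array of all for this gene, and the difference moved from 0.47 ± 0.41 to 0.87 without it, but to 0.07 without wild-type replicate 2. Top2a read 9.43, 9.35 and 8.73 against 7.67, 8.78 and 8.99, and its difference moved the other way, from 0.69 ± 0.40 to 0.28. Ncapd2, a condensin subunit, read 7.48, 7.74 and 7.28 against 6.96, 6.27 and 7.35 and differed by 0.64 ± 0.31, or 0.34 without wild-type replicate 2. Smc2, the condensin ATPase, had the largest difference of the 38 genes, 1.10 ± 1.27, and 1 array set it apart. Wild-type replicate 1 read 3.60, the other wild types 8.63 and 8.14, and the mutants 8.05, 8.15 and 7.47. Without that array the difference was -0.50.

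Spindle genes were higher on average for 7 of 8, with a median difference of 0.58 that was 0.49 without wild-type replicate 1. The groups were separate for 2 of the 8, both higher, where 4.22% of all genes were higher without overlap. Nusap1, which bundles spindle microtubules, read 9.90, 9.40 and 8.98 in mutants and 8.34, 8.71 and 8.49 in wild types, so every mutant was above every wild type. Its difference was 0.91 ± 0.28 (1.88-fold; limma unadjusted p = 0.0144, adjusted p = 0.999), and 0.82 without wild-type replicate 1. Tacc3, which works with a microtubule polymerase and clathrin on the spindle, read 9.08, 8.49 and 8.83 against 8.13, 8.15 and 8.14. The wild types were nearly equal (SD 0.01, n = 3) and all lay below the mutants, with a difference of 0.66 ± 0.21 (1.58-fold; limma unadjusted p = 0.0174) that was 0.65 without wild-type replicate 1. Hmmr, a microtubule-binding protein of the spindle poles, read 6.69, 7.12 and 6.11 against 6.12, 5.19 and 5.96. Mutant replicate 3 and wild-type replicate 1 were level, and the difference was 0.89 ± 0.36, or 1.07 without that wild type. Tpx2, the activator of Aurora A, read 10.10, 9.68 and 9.38 against 9.21, 8.61 and 9.44 and differed by 0.63 ± 0.30, or 0.39 without wild-type replicate 2. Its partner Aurka, the Aurora A kinase itself, went the other way: it read 5.45, 4.96 and 6.22 against 6.47, 6.08 and 5.42, a difference of -0.45 ± 0.41 with overlapping groups that ran from -0.79 without mutant replicate 3 to -0.15 without mutant replicate 2. The spindle motors Kif11 and Kif22 and the centrosome kinase Nek2 differed by 0.19 to 0.52, with overlap, and by 0.15 to 0.33 without wild-type replicate 1.

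Further probe sets that the choice of 1 per gene had not used were read for the same genes. There were 31, for 20 of the genes, and 24 of them were higher in mutants; all 12 that were brighter than the median probe set had a difference above 0, with a median of 0.52. These come from the same 6 RNA samples and are no further replicates. The other 2 probe sets of Tacc3 had differences of 0.86 ± 0.24 and 1.24 ± 0.23, each with every mutant above every wild type, so all 3 probe sets of this gene separated the groups. A second probe set of Trip13, the ATPase that remodels the checkpoint protein Mad2, read 6.86, 6.72 and 6.93 in mutants and 5.47, 5.65 and 5.56 in wild types. That difference was 1.28 ± 0.17 (limma adjusted p = 0.54), while the chosen, brighter probe set read 7.30, 7.39 and 6.79 against 6.93, 6.31 and 6.67 and differed by 0.52 ± 0.26. A second probe set of Hmmr differed by 0.65 ± 0.25 without overlap, and its dimmest by -0.45 ± 0.43. The 19 dim probe sets were divided, 12 higher and 7 lower. Among the lower ones, the second of Top2a (mean level 2.94) had every mutant below every wild type, at -0.31 ± 0.18. The second of Nusap1 (mean level 3.83) differed by -0.20 ± 0.26 with overlap.

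**Figure D4:**
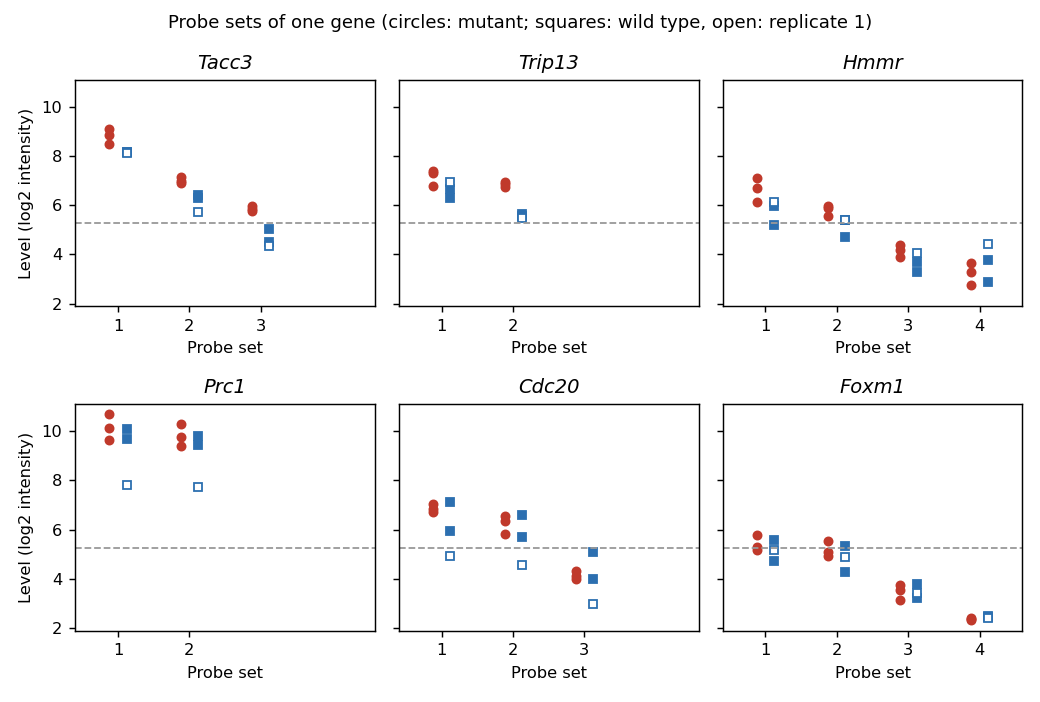
Log2 levels of every probe set of 6 genes, ordered from brightest to dimmest; circles are mutants, filled squares wild-type replicates 2 and 3, open squares wild-type replicate 1, and the dashed line is the median of all probe sets. All 3 probe sets of Tacc3, the second of Trip13 and the second of Hmmr separate the groups, while in Prc1 and all 3 probe sets of Cdc20 the open square lies far below the rest.

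Kinetochore and checkpoint genes were higher on average for 7 of 8, with a median difference of 0.55 that was 0.32 without wild-type replicate 1. Cenpa, the histone that marks centromeres, read 7.44, 7.09 and 7.44 in mutants and 6.08, 6.36 and 6.96 in wild types, with no overlap. The difference was 0.86 ± 0.27 (limma unadjusted p = 0.0181, adjusted p = 0.999), and 0.67 without wild-type replicate 1. Cenpf, a protein of the outer kinetochore, read 5.64, 6.28 and 5.97 against 5.29, 4.45 and 5.40. It also showed no overlap, with a difference of 0.92 ± 0.32 that became 1.04 without that array. Ttk, the checkpoint kinase Mps1, read 6.88, 6.84 and 6.52 against 6.05, 5.91 and 6.56, and only wild-type replicate 3 reached the mutant range; the difference was 0.57 ± 0.24 (limma unadjusted p = 0.0499, adjusted p = 0.999). Mad2l1, the checkpoint protein Mad2, read 7.27, 7.60 and 7.44 against 5.18, 7.39 and 7.48. Its difference of 0.75 ± 0.61 was 0.00 without wild-type replicate 1. Cenpe, the kinetochore motor, read 6.23, 5.54 and 5.46 against 6.34, 5.46 and 5.78, a difference of -0.12 ± 0.32 that was 0.12 without wild-type replicate 1. The checkpoint kinases Bub1 and Bub1b differed by 0.53 and 0.52, with overlap, and by 0.03 and 0.13 without wild-type replicate 1.

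**Figure D5:**
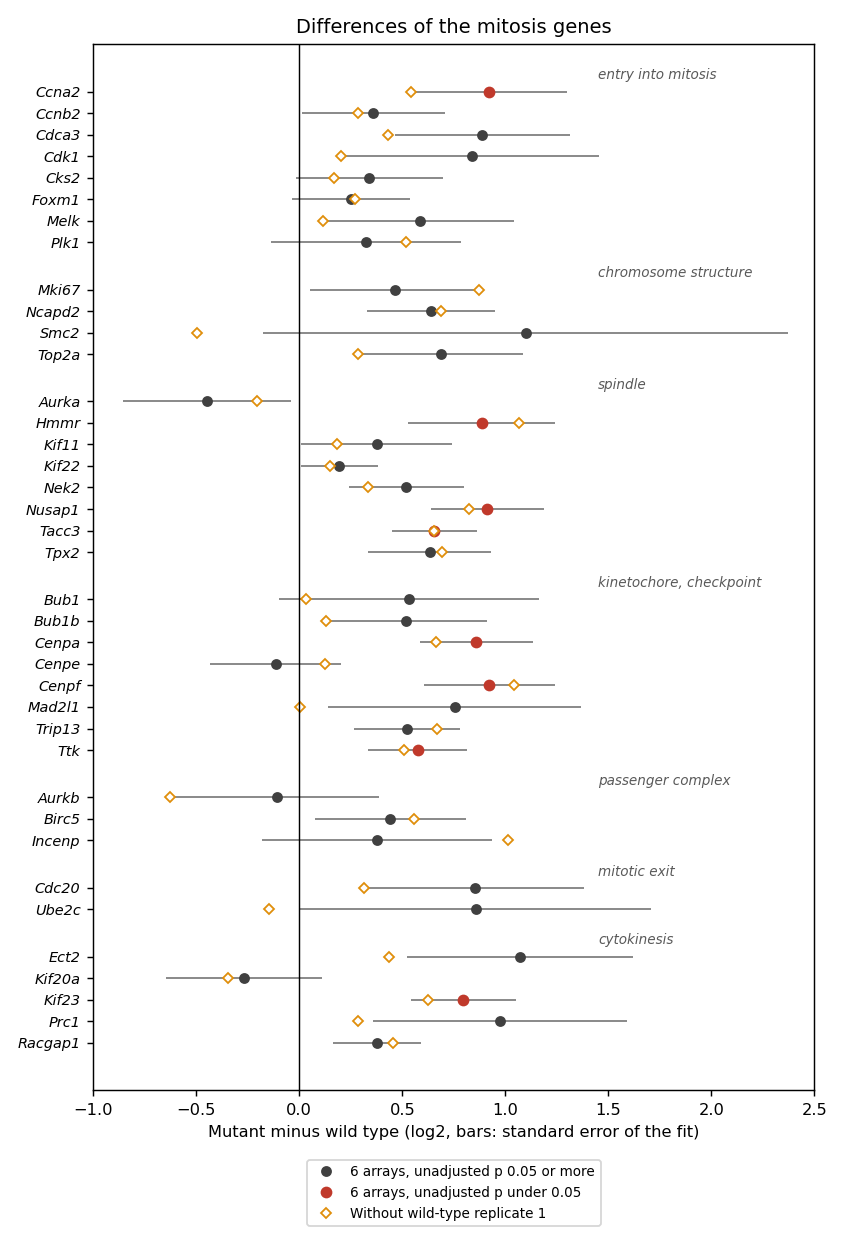
Mutant minus wild type (log2) for the 38 mitosis genes, with the standard error of the fit as bars; the 8 points in red have an unadjusted p under 0.05 and none passed after adjustment. Open diamonds are the differences without wild-type replicate 1: Tacc3 and Nusap1 hardly move, whereas Smc2 and Ube2c fall below 0 and Cenpe rises above it.

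The chromosomal passenger complex, which corrects faulty attachments and steers cytokinesis, gave no uniform direction among its 3 measured genes. Incenp, its scaffold, read 10.70, 11.11 and 10.35 in mutants and 11.62, 9.47 and 9.95 in wild types. The highest array was wild-type replicate 1, and the difference was 0.38 ± 0.56 with it and 1.01 without it, but -0.06 without wild-type replicate 2. The other probe sets of Incenp were far dimmer, with mean levels of 5.85 and 2.87 against 10.54, and differed by 0.43 ± 0.40 and -0.36 ± 0.22. Birc5, the survivin subunit, read 10.72, 10.43 and 9.95 against 10.15, 9.22 and 10.40 and differed by 0.44 ± 0.37, or 0.09 without wild-type replicate 2. Aurkb, the kinase of the complex, read 6.55, 6.49 and 5.65 against 5.30, 6.81 and 6.92. Its difference was -0.11 ± 0.49, and -0.63 without wild-type replicate 1, since the other wild types lay above all mutants; it was 0.12 without wild-type replicate 2 and 0.18 without wild-type replicate 3 or mutant replicate 3.

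Both measured genes of mitotic exit were higher on average, with a median difference of 0.85 that was 0.08 without wild-type replicate 1. Cdc20, the activator of the anaphase-promoting complex, read 7.02, 6.81 and 6.72 in mutants and 4.92, 5.94 and 7.13 in wild types, with the highest and the lowest arrays both wild type. Its difference was 0.85 ± 0.53, and 0.32 without wild-type replicate 1. Ube2c, the ubiquitin-conjugating enzyme of that complex, read 8.75, 8.19 and 7.63 against 5.33, 8.02 and 8.65, a difference of 0.86 ± 0.85 that was -0.15 without wild-type replicate 1.

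Of the 5 cytokinesis genes, 4 were higher on average, with a median difference of 0.80 that was 0.43 without wild-type replicate 1. Kif23, the motor of the centralspindlin complex, was the one with separate groups. It read 7.60, 7.93 and 7.32 in mutants and 6.47, 6.88 and 7.10 in wild types, a difference of 0.80 ± 0.25 (1.74-fold; limma unadjusted p = 0.0183, adjusted p = 0.999) and 0.62 without wild-type replicate 1. Its centralspindlin partner Racgap1 differed by 0.38 ± 0.21. Ect2, the activator of the contractile ring that centralspindlin recruits, read 9.18, 8.57 and 8.81 against 6.51, 8.21 and 8.63, and Prc1, which crosslinks the midzone microtubules, read 10.11, 10.67 and 9.65 against 7.79, 9.65 and 10.06. In both, wild-type replicate 1 was far below the rest: the difference went from 1.07 ± 0.55 to 0.43 for Ect2 and from 0.98 ± 0.62 to 0.28 for Prc1 without it. Kif20a, a motor that carries the passenger complex to the midzone, read 6.04, 4.73 and 5.04 against 5.38, 5.32 and 5.92, a difference of -0.27 ± 0.38 that was 0.00 without mutant replicate 2.

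Other genes of mitosis, a list of 91 with 67 measured, had higher values for 54 (80.6%, against 47.8% of all genes) and lower for 13, with a median difference of 0.24. At an unadjusted p under 0.05 there were 7 higher and 1 lower, against 2.13% and 1.72% of all genes, and limma called 0. Of those higher, the lowest p belonged to the kinesin Kif18a (1.13 ± 0.23, dimmer than the median probe set), the phosphatase Cdc25b, which activates Cdk1 (0.71 ± 0.19), and the contractile ring protein Anln (1.06 ± 0.28, also dim). Each separated the groups, as in Cdc25b, which read 9.33, 8.93 and 9.08 in mutants and 8.36, 8.33 and 8.52 in wild types. Spag5, a spindle protein also called astrin, was the 1 lower gene at that p. It read 8.36, 7.98 and 8.30 in mutants and 9.60, 9.26 and 9.07 in wild types, below in every mutant, with a difference of -1.10 ± 0.22 (limma unadjusted p = 0.00193, adjusted p = 0.928). Fzr1 (-0.39 ± 0.29, dim), the other activator of the anaphase-promoting complex, and the condensin II subunit Ncaph2 (-0.26 ± 0.25) followed with overlapping groups, at -0.23 and -0.08 without wild-type replicate 1. The median of this list was 0.25 without wild-type replicate 1, but 0.15 without wild-type replicate 2, 0.40 without mutant replicate 3 and 0.36 without wild-type replicate 3.

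DNA replication genes, which act in S phase, were higher for 29 of 32 measured (90.6%, against 47.8% of all genes), with a median difference of 0.26 and 0 called by limma. At an unadjusted p under 0.05 there was 1 higher and 0 lower, close to the shares of all genes (2.13% and 1.72%). E2f1, a transcription factor of S phase entry, read 7.88, 8.14 and 7.43 in mutants and 7.38, 7.09 and 7.23 in wild types and differed by 0.58 ± 0.24. The helicase factor Cdc45, which was dim, differed by 0.80 ± 0.38 and the polymerase clamp Pcna by 0.85 ± 0.50; without wild-type replicate 1 these were 0.41 and 0.32. Lower values were those of Ung (-0.34 ± 0.59) and the cyclin Ccne2 (-0.21 ± 0.25), at -0.11 and -0.01 without wild-type replicate 1, with Rfc4 at 0 within the rounding (0.30 without that array). This median was 0.15 without mutant replicate 1, 0.11 without mutant replicate 2, 0.46 without mutant replicate 3 and 0.11 without wild-type replicate 2. Whether the mitosis and replication lists differ from each other was not tested.

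The 22 genes with TTTGAA in a promoter window had a median difference of 0.74 (21 higher, 1 lower), and the 10 without it 0.53 (9 higher, 1 lower). Without wild-type replicate 1 the medians were 0.37 and 0.25. The 6 genes with neither motif, which include Nusap1 and Tacc3, had a median of 0.62 that was 0.60 without that array. The ranges overlapped, from -0.45 to 1.10 with TTTGAA and from -0.12 to 0.91 without, and the difference between these sets of genes was not tested.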

How the data were processed

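Gene expression was measured with 1 one-colour array per sample, 3 mutant and 3 wild-type, grouped by the titles of the samples; the RNA was amplified with a Nugen Ovation kit before labelling, per the labels' protocols. Linear intensities per probe set were deposited; the authors used RMA (background correction, quantile normalisation and summary of probes), per the submitters' processing notes, with version, settings and genome build not given in the sources used here. RMA can compress differences of dim probe sets.

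The log2 of each intensity was taken here. Of the probe sets, 64 array controls were left out and 22626 tested; 20380 had 1 symbol in the platform annotation of GEO, 691 several and 1555 none, and 20351 were matched by Entrez ID to RefSeq (GRCm38.p6), changing 0 symbols. No column of sample values was left out (0). No pair of arrays shared more than 0.186% of values. limma 3.58.1 in R 4.3.3 (lmFit and eBayes, two-sided) compared mutant with wild type, with Benjamini-Hochberg adjustment and a threshold of 0.05; the fit was tested on simulated data.

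Members and lists were chosen with earlier results of these data known. Values by array were given for the member of highest level and the 2 of lowest p in each role, for every member with an unadjusted p under 0.05 or a difference below 0, and for Mki67, Top2a, Ccnb1 (not measured), Cdk1 and Foxm1; of the other lists, the 3 genes of lowest p in each direction were named. Trip13 and Smc2 were chosen after their values were seen. Lists are described by counts and medians without a test. Same-numbered arrays did not deviate together (correlations of -0.262 to -0.0674), so the numbers were not treated as pairs. Between differently numbered arrays of the groups these correlations ran from -0.165 to 0.299, highest for mutant replicate 2 with wild-type replicate 3. Whether these share a litter or a batch is not given in the labels.

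Alternatives were a replicate block, median centring, quantile normalisation, an offset of 16 before the log, a trended prior, array weights, leaving out probe sets below the median level, averaging the probe sets of a gene, a threshold of 0.1 and leaving out each array; a 3′ to 5′ covariate was added after seeing the data.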

Additional observations from a re-analysis of the deposited data

How the results depend on the processing

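With array weights, which gave 5.65 to wild-type replicate 3 and 0.224 to wild-type replicate 1, limma called 7 probe sets but 0 mitosis genes; the median difference of the mitosis genes was then 0.15, with 25 of 38 higher, and the medians of the other mitosis and replication lists were 0.11 and 0.13; the cause was not tested. In the other alternatives with all arrays the median of the mitosis genes lay between 0.47 (probe sets of a gene averaged; also 0.47 with the offset) and 0.61 (dim probe sets left out, 36 genes, with 0.39 for the 49 other mitosis genes). Leaving out single arrays gave medians of 0.32 to 0.85, with 33 to 36 of 38 genes higher and 0 called. The replicate block left the differences as they were and called 0 probe sets. Its limma unadjusted p stayed under 0.05 for Nusap1 (0.0335), Tacc3 (0.0454), Cenpa (0.0288) and Kif23 (0.0426). It rose above 0.05 for Ccna2 (0.0868), Hmmr (0.0896), Cenpf (0.0594) and Ttk (0.113), and fell to 0.0445 for Cdca3. With dim probe sets left out, that of Ccna2 (0.0536), Hmmr (0.0527) and Ttk (0.0847) also lay above 0.05. The 3′ to 5′ covariate gave medians of 0.23 for the other mitosis genes and 0.16 for replication. No named gene was called in any of 390 recomputed values over 15 alternatives (lowest adjusted p 0.217), and 12 of them, in 8 genes, changed sign with one of the values within 1 standard error of 0. The replicate block, the trended prior and leaving out dim probe sets do not alter a difference of a named gene, so its sign could not change there. Median centring lowered the median of the mitosis genes to 0.52. The number of arrays limits the precision, and dim probe sets such as those of Plk1 and Nek2 are measured least well.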

Other observations

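Genes that hold cells out of the cycle or slow it were measured beside the mitosis genes. Of 14 inhibitors, pocket proteins and antiproliferative genes, 11 had higher values in mutants (78.6%, against 47.8% of all genes) and 3 lower. Without wild-type replicate 1, 8 of the 14 were higher and 6 lower, where 50.6% of all genes were higher. The median log2 difference was 0.24, or 0.02 without wild-type replicate 1, and limma called 0 (0 also at an unadjusted p under 0.05). The CDK inhibitor gene Cdkn1a read 5.86, 6.04 and 5.90 in mutant replicates 1, 2 and 3 and 6.02, 5.16 and 4.65 in wild types, a difference of 0.66 ± 0.35 (SE) that was 1.03 without wild-type replicate 1 (limma adjusted p = 0.697). Ccng2, a cyclin of resting cells, differed by 0.93 ± 0.54, and 0.33 without wild-type replicate 1. Btg2, an antiproliferative gene, differed by 1.02 ± 0.61, and 0.29 without that array. Cdkn1b, a CDK inhibitor that is abundant in fibre cells, read 11.25, 9.15 and 10.32 in mutants and 10.42, 10.55 and 9.90 in wild types and differed by -0.05 ± 0.52, with mutants on both sides of the wild types. Ccng1 differed by -0.23 ± 0.38, and -0.65 without wild-type replicate 1, and Cdkn2a, a dim probe set, by -0.09 ± 0.18.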
